A study of Mus musculus with 20 samples.

Results

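Keratins are the intermediate filament proteins of epithelial cells, and Trp63 encodes p63, the transcription factor that marks basal cells. Every row of the deposited table whose symbol is Krt followed by a number was taken, together with Trp63. That gave 53 members of the 23284 genes in the table: 52 keratin rows, 28 of them for type I and 24 for type II keratins, and Trp63. The keratins were described as 4 simple keratins (Krt7, Krt8, Krt18 and Krt19), 4 basal keratins (Krt5, Krt14, Krt15 and Krt17) and 44 others.

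A keratin filament is built from type I and type II proteins that pair with each other. Krt8 and Krt18 are the pair of simple epithelia, and in the prostate and the seminal vesicle they mark luminal secretory cells, while Krt5 and Krt14 are the pair of basal cells, which lie on the basement membrane below them. p63 is needed for the formation of prostate basal cells and of stratified epithelia in the mouse, and it activates Krt5 and Krt14 in basal keratinocytes.

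The study measured poly-A RNA in 20 tissue recombinants, which are grafts of epithelial cells joined to a mesenchyme that directs what they become. Mouse epithelium from donors aged 2 months was combined with rat (Sprague Dawley) urogenital sinus mesenchyme, an embryonic tissue that can direct epithelium to form prostate, and the grafts were taken 3 months after implantation. There were 4 libraries in each of 5 groups: PE, grafts of prostate epithelium with unaltered NKX3.1; mNKX3.1, grafts of seminal vesicle epithelium with the construct of that name; UTY_sh, seminal vesicle epithelium with a hairpin named for UTY; mNKX3.1+UTY_sh, seminal vesicle epithelium with both; and SVE, seminal vesicle epithelium with unaltered NKX3.1. Doxycycline given for 3 months in the drinking water induced the inducible pTRIPZ vector, and the protocol names both wild-type NKX3.1 and its T164A mutant without saying which one the m marks. The strain of the mice is C57Bl/6J in the growth protocol and a hybrid of 129/SvImJ and C57Bl/6J in the sample labels. The grafts contain rat stroma and can hold cells of the host mouse, and the labels leave unsaid whether the 4 libraries with the same label are from separate grafts or animals.

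The values are the log2 values that the authors deposited, so that 1 unit is a factor of 2 on that scale. Antilogs were whole multiples of 1 read between log2 values of 11 and 13 but mostly not between 8 and 10. At lower levels 1 unit may therefore not be a factor of 2 in reads. The gene that the hairpin is named for was looked at first. Uty averaged 9.22 ± 0.23 in UTY_sh and 9.15 ± 0.09 in mNKX3.1+UTY_sh, against 9.29 ± 0.21 in SVE (SD, n = 4 each), so both hairpin groups overlapped SVE (limma adjusted p = 0.999 and 0.9998). It averaged 10.24 ± 0.14 in PE and 10.23 ± 0.11 in mNKX3.1, so that mNKX3.1+UTY_sh was 1.08 lower than mNKX3.1 (SE 0.11, limma adjusted p = 1.37e-07).

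How nearly a library could be written as a weighted sum of libraries of another group was also measured. Over 617 abundant genes outside the keratins, each mNKX3.1 library was nearly a weighted sum of some pair of PE libraries: the median squared residual was 1.70 to 3.30 times counting noise. The same measure was 4.97 to 77.5 for PE libraries made from mNKX3.1 libraries, and 8290 to 11800 for mNKX3.1 libraries made from SVE libraries. Among the groups of seminal vesicle epithelium other than mNKX3.1 some libraries came close to that range: it was 3.01 to 14.9 for UTY_sh made from mNKX3.1+UTY_sh, 3.20 to 39.9 for mNKX3.1+UTY_sh made from UTY_sh, 3.33 at the lowest for UTY_sh made from SVE and 4.15 to 10.5 for mNKX3.1+UTY_sh made from SVE. Only for mNKX3.1 made from PE did all 4 libraries stay at or below 3.30. Krt8, Krt18 and Krt19 in the mNKX3.1 libraries differed from those sums by −0.063 to 0.087 log2 units. The SD of these genes within PE was 0.10, 0.095 and 0.17, so these differences are not small beside the spread between PE libraries. The values of mNKX3.1 against SVE are therefore given with those of PE against SVE beside them, PE against SVE was also fitted without the mNKX3.1 libraries, and the double group was also compared with PE. The interaction was not fitted without the mNKX3.1 libraries. Estimated depth was 14930000 to 20820000 reads for the PE libraries and 15470000 to 21860000 for the mNKX3.1 libraries. It was 22520000 to 24950000 for UTY_sh, 24050000 to 29810000 for mNKX3.1+UTY_sh and 20260000 to 25000000 for SVE.

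Most keratin genes were close to the floor of the table in every graft. A gene was tested when at least 4 libraries had a log2 value of 5 or more, which 13456 genes did. Of the 53 members, 14 did so, 13 keratins and Trp63, and the other 39 stayed below 5 in every library. Of the 39, 36 averaged below 3 over the 20 libraries, with a median of 2.36 and single values of 0.845 to 4.02. All 23 hair and root sheath keratins in the table stayed below the filter, and so did 12 of 16 suprabasal, squamous and wound keratins. Krt13 of non-cornified stratified epithelium and the injury keratins Krt6a, Krt6b and Krt16 lay at that floor as well. Krt78 passed only through PE and mNKX3.1 libraries, and Krt80 only through libraries of the 3 groups UTY_sh, mNKX3.1+UTY_sh and SVE, so their presence among the tested members follows from the groups in which they were high. Keratins have close paralogs and processed copies, such as Krt6a and Krt6b, Krt33a and Krt33b, or the pseudogenes of Krt8 and Krt18. How reads shared between copies, or between mouse and rat, were counted is not given in the sources used here, so values of such genes are uncertain.

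Levels of different keratins were compared only per kb of exon, as shares of the summed signal of the 13 keratins that passed. The simple keratins made up nearly all of it in every group: 89.6 ± 0.913% in PE, 90.0 ± 0.601% in mNKX3.1, 87.5 ± 1.71% in UTY_sh, 88.0 ± 1.43% in mNKX3.1+UTY_sh and 88.7 ± 1.54% in SVE (SD, n = 4 each). The largest single share was that of Krt18, with 54.1 ± 1.19% in PE and 56.4 ± 1.24% in SVE. Krt19, another type I keratin of simple epithelia, had 24.3 ± 0.969% in PE and 19.1 ± 1.63% in SVE, and Krt8 had 11.1 ± 0.221% in mNKX3.1 and 12.6 ± 0.984% in SVE.

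The basal keratins took a smaller share in PE and mNKX3.1 than in the other groups. They made up 7.20 ± 0.587% of the keratin signal per kb in PE and 6.93 ± 0.415% in mNKX3.1, against 11.5 ± 1.30% in UTY_sh, 11.1 ± 1.01% in mNKX3.1+UTY_sh and 10.4 ± 1.37% in SVE. The libraries of PE (6.71 to 8.02%) and of SVE (8.91 to 11.97%) did not overlap. The other 5 keratins that passed made up 3.23 ± 0.379% in PE and 3.09 ± 0.231% in mNKX3.1, against 0.998 ± 0.502%, 0.878 ± 0.465% and 0.920 ± 0.491% in UTY_sh, mNKX3.1+UTY_sh and SVE. Type II keratins held 15.0 ± 0.622% in PE and 14.8 ± 0.0737% in mNKX3.1, against 19.3 ± 1.58% in SVE, and their PE and SVE libraries (14.4 to 15.8% and 17.4 to 21.0%) were apart as well. Shares of one total move against each other by construction, and no test was made on them. They rest on antilogs, so the limit given above for lower values holds for them too.

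**Figure D1:**
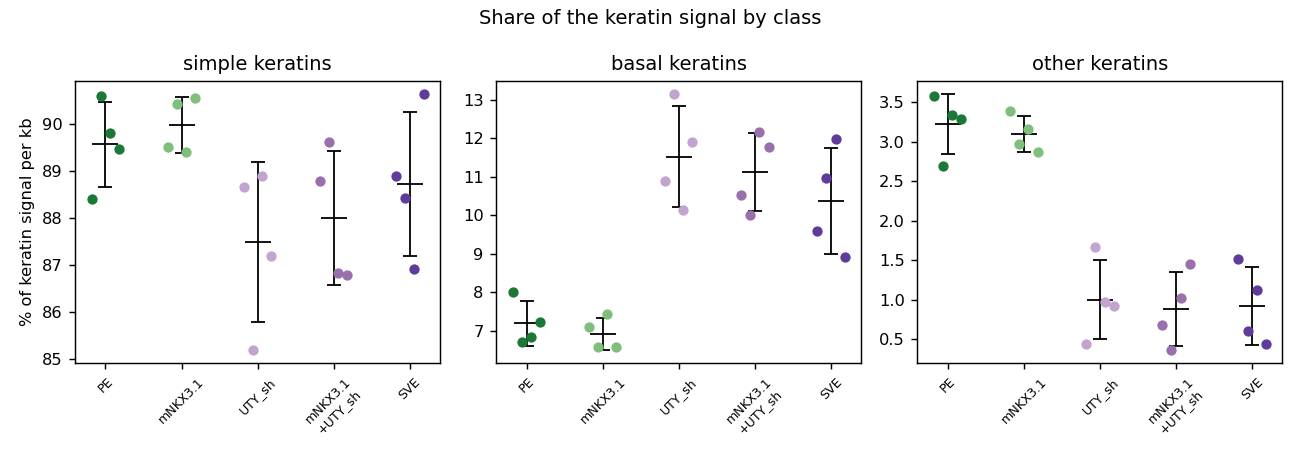
Share of the keratin signal, in % per kb of exon, held by the simple, basal and other keratins (panels, each with its own axis that does not start at 0), for the 4 libraries of each group. Points are libraries, and the bar and whiskers are the mean and SD. Basal keratins lay between 6.58 and 8.02% in the PE and mNKX3.1 libraries, below every library of the other 3 groups.

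The first comparison was between epithelium of prostate and of seminal vesicle origin, each grafted with rat mesenchyme. In PE grafts Krt19, Krt15, Krt23 and Krt78 were higher than in SVE grafts, and Krt8 and Krt18 slightly so, while Trp63, its keratins Krt5 and Krt14, and the simple keratin Krt7 were lower. By limma with Benjamini-Hochberg adjustment over the 13456 genes, 10 of the 14 tested members changed, 6 higher and 4 lower. That is 71.4% of them, where 62.1% of all genes tested passed (31.8% higher, 30.4% lower), so the share of members called was near the background. Fitted on PE and SVE alone, 8 of the 14 and 51.8% of all genes passed. The groups did not overlap for 7 of the 14 members, against 48.9% of all genes. 

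The second comparison, mNKX3.1 against SVE, called the same number: 10 of 14, 6 higher and 4 lower, with 62.3% of all genes called (31.7% higher, 30.6% lower). Its groups were apart for 8 of the 14, against 54.9% of all genes. It shares the 4 SVE libraries with the first comparison, so the values of both are set side by side below without reading one as support for the other. In bulk RNA, fewer cells of a type and less RNA per cell cannot be told apart, and this holds for every difference given here.

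Krt7 showed the largest fall of the 4 simple keratins. It is a type II keratin of ducts, bladder and other simple epithelia, and is also made by mesothelium. Its log2 values were 7.24, 5.36, 5.36 and 6.63 in PE and 6.19, 5.88, 6.52 and 5.57 in mNKX3.1. They were 8.33, 8.72, 8.18 and 8.44 in UTY_sh, 8.31, 8.14, 8.66 and 8.75 in mNKX3.1+UTY_sh, and 8.51, 7.98, 8.70 and 7.75 in SVE. The highest PE library stayed below the lowest SVE library, and the 12 libraries of the other 3 groups overlapped one another. Krt7 fell by 2.08 log2 units in PE against SVE (SE 0.34, limma adjusted p = 3.74e-05) and by 2.19 in mNKX3.1 against SVE (SE 0.34, limma adjusted p = 2.16e-05).

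Markers of mesothelium moved with Krt7. All 4 on the list, Msln, Upk3b, Lrrn4 and Wt1, were lower in PE than in SVE. Their summed level was 6.68 to 8.45 in PE and 7.01 to 8.00 in mNKX3.1, against 9.88 to 10.01 in SVE. A summed level is the log2 of the sum of the antilogs of a list, so its most abundant genes weigh most. Msln, which encodes the mesothelial surface protein mesothelin, averaged 4.97 ± 1.18 in PE and 7.89 ± 0.12 in SVE (limma adjusted p = 8.21e-05), and Wt1, the mesothelial transcription factor, fell by 1.51 (limma adjusted p = 8.83e-10). Lrrn4 fell by 2.87 (limma adjusted p = 6.12e-05). Within PE, libraries 1 and 4 had both the higher Krt7 values and the higher Msln values, 6.17 and 5.73 against 4.35 and 3.63 in libraries 2 and 3. Within UTY_sh it was the reverse for 1 library: library 2 had the lowest Msln, 6.06, and the highest Krt7, 8.72. The part of mesothelial cells in the Krt7 difference was not tested.

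Krt8 and Krt18 differed little between the groups. Krt8, the type II partner of Krt18, had 11.64, 11.41, 11.55 and 11.44 in PE and 11.54, 11.41, 11.62 and 11.45 in mNKX3.1, against 11.36, 11.27, 11.31 and 11.48 in SVE. UTY_sh had 11.30, 11.22, 11.26 and 11.39, and mNKX3.1+UTY_sh had 11.54, 11.43, 11.37 and 11.37. The PE and SVE libraries overlapped, and these values stood for 2842 to 4089 reads in PE and 2048 to 2820 reads in SVE. Krt8 was 0.16 higher in PE than in SVE (SE 0.06, limma adjusted p = 0.0409) and 0.15 higher in mNKX3.1 (SE 0.06, limma adjusted p = 0.0447). Both calls were lost in 12 of 18 other settings, with adjusted p of up to 0.143 and 0.161, among them those without any 1 of SVE libraries 1, 2 and 3, PE libraries 1 and 3 or mNKX3.1 libraries 1 and 3, where the p lay between 0.0617 and 0.146.

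Krt18 had 13.49, 13.28, 13.31 and 13.35 in PE and 13.41, 13.28, 13.45 and 13.29 in mNKX3.1. It had 13.144, 13.010, 13.004 and 13.101 in UTY_sh, 13.28, 13.26, 13.06 and 13.08 in mNKX3.1+UTY_sh, and 13.08, 12.84, 13.09 and 13.31 in SVE. SVE library 4 reached into the range of PE, and the other SVE libraries lay below it. The difference was 0.28 in PE against SVE (SE 0.08, limma adjusted p = 0.00716) and 0.28 in mNKX3.1 against SVE (SE 0.08, limma adjusted p = 0.00777). With PE and SVE fitted alone, the first of these did not pass (limma adjusted p = 0.0532).

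Krt19 separated the groups without overlap. Its values were 12.56, 12.24, 12.18 and 12.35 in PE and 12.39, 12.13, 12.49 and 12.20 in mNKX3.1. They were 11.85, 11.84, 11.44 and 11.55 in UTY_sh, 11.91, 11.90, 11.93 and 11.83 in mNKX3.1+UTY_sh, and 11.76, 11.22, 11.65 and 11.92 in SVE. Every PE and mNKX3.1 library lay above all 12 others. Krt19 was 0.69 higher in PE than in SVE (SE 0.13, limma adjusted p = 1.44e-04) and 0.66 higher in mNKX3.1 than in SVE (SE 0.13, limma adjusted p = 2.38e-04).

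Trp63 had the smallest p of the 14 members in both comparisons. Its values were 8.48, 7.97, 8.09 and 8.12 in PE and 8.26, 8.17, 8.26 and 8.13 in mNKX3.1. The other groups had 9.44, 9.43, 9.34 and 9.47 in UTY_sh, 9.42, 9.39, 9.36 and 9.26 in mNKX3.1+UTY_sh, and 9.12, 9.26, 9.50 and 9.34 in SVE. No PE or mNKX3.1 library came within the range of any of the 3 other groups, and those 3 overlapped one another. Trp63 fell by 1.14 in PE against SVE (SE 0.09, limma adjusted p = 5.99e-09) and by 1.10 in mNKX3.1 against SVE (SE 0.09, limma adjusted p = 9.54e-09).

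Krt14, the type I keratin of basal cells, was lower together with Trp63. It had 8.09, 7.21, 7.14 and 7.41 in PE and 7.42, 6.96, 7.77 and 7.11 in mNKX3.1. It had 9.06, 9.06, 8.50 and 8.76 in UTY_sh, 8.94, 9.10, 9.16 and 8.98 in mNKX3.1+UTY_sh, and 8.35, 8.67, 8.53 and 8.87 in SVE. PE library 1 was the highest of its group and still below every SVE library. The log2 difference was −1.14 in PE against SVE (SE 0.20, limma adjusted p = 6.08e-05) and −1.29 in mNKX3.1 against SVE (SE 0.20, limma adjusted p = 1.68e-05).

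Krt5, the type II partner of Krt14, was lower as well. It had 10.20, 9.64, 9.85 and 9.84 in PE and 9.91, 9.58, 9.99 and 9.59 in mNKX3.1. The other groups had 10.61, 10.75, 10.27 and 10.67 in UTY_sh, 10.58, 10.47, 10.75 and 10.59 in mNKX3.1+UTY_sh, and 10.22, 10.25, 10.61 and 10.33 in SVE. PE library 1 came within a narrow margin of the lowest SVE library, and the groups did not overlap. The log2 difference was −0.47 in PE against SVE (SE 0.13, limma adjusted p = 0.00393) and −0.58 in mNKX3.1 against SVE (SE 0.13, limma adjusted p = 6.64e-04). Per kb, Krt5 held 3.19 ± 0.252% of the keratin signal in PE and 5.62 ± 0.844% in SVE, and Krt14 held 0.782 ± 0.181% in PE and 2.18 ± 0.385% in SVE.

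Krt15, a type I keratin of basal and stem-like cells in stratified epithelia, moved the other way. Its values were 9.76, 9.32, 9.19 and 9.53 in PE and 9.49, 9.28, 9.68 and 9.30 in mNKX3.1. They were 8.21, 9.04, 8.45 and 8.83 in UTY_sh, 8.86, 8.41, 8.59 and 8.98 in mNKX3.1+UTY_sh, and 8.88, 8.16, 9.20 and 8.41 in SVE. SVE library 3 overlapped the lowest PE library, and mNKX3.1 was apart from SVE. Krt15 was 0.79 higher in PE than in SVE (SE 0.21, limma adjusted p = 0.00326) and 0.78 higher in mNKX3.1 than in SVE (SE 0.21, limma adjusted p = 0.00375). Krt15 and Krt5 thus held similar shares per kb in PE, 3.06 ± 0.295% and 3.19 ± 0.252%, where in SVE they held 2.31 ± 0.692% and 5.62 ± 0.844%.

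Krt17, a basal keratin that is induced in wounds and carcinomas, was low everywhere and was not called in any of the 7 comparisons. It had 5.11, 4.55, 5.77 and 5.08 in PE and 5.38, 5.40, 4.44 and 5.29 in mNKX3.1. It had 5.61, 5.97, 5.07 and 5.27 in UTY_sh, 5.86, 5.47, 5.72 and 5.74 in mNKX3.1+UTY_sh, and 5.54, 5.23, 5.65 and 5.14 in SVE. All groups overlapped except mNKX3.1+UTY_sh and mNKX3.1. The difference in PE against SVE was −0.26 (95% interval −0.80 to 0.27, limma adjusted p = 0.382).

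**Figure D2:**
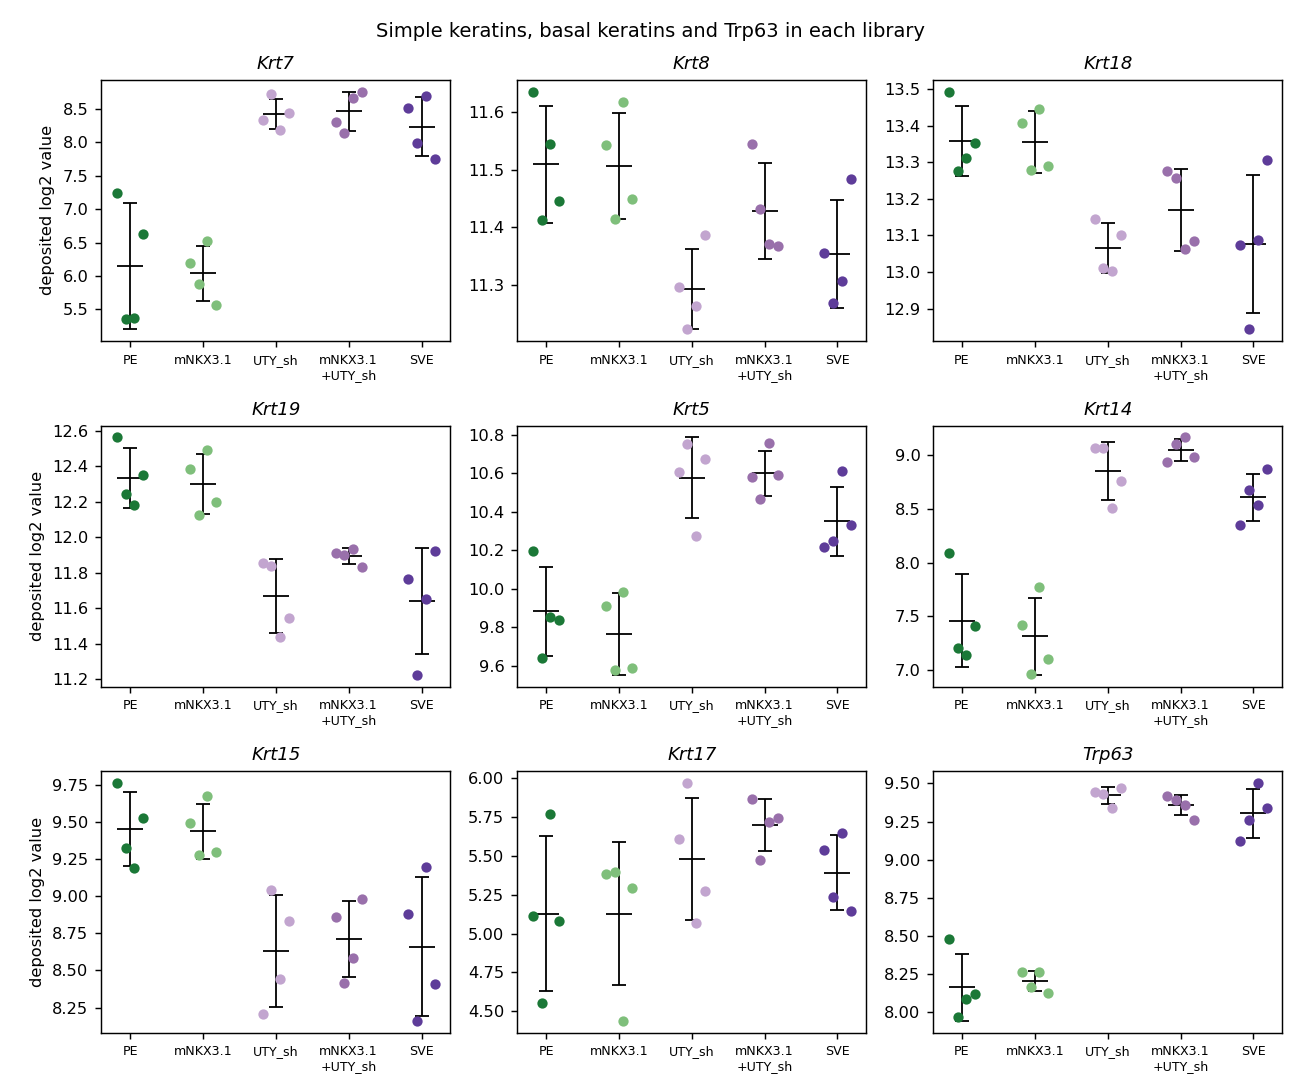
Deposited log2 values of the 4 simple keratins, the 4 basal keratins and Trp63 in the 4 libraries of each group, with a separate axis for each gene that does not start at 0. Points are libraries, and the bar and whiskers are the mean and SD. The PE and mNKX3.1 libraries lay below all others for Krt7, Krt5, Krt14 and Trp63 and above all others for Krt19, and overlapped SVE for Krt8, Krt18 and Krt17.

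Promoter sequences are shown for the 2 basal partners that fell together and for Krt7 and Krt23, which had the largest fall and the largest rise among the members in PE against SVE. They come from RefSeq (GRCm38.p6), cover 250 bases before to 50 after the start listed for the gene, and were matched by symbol only. That gave 34 of the 53 members and 8 of the 14 tested. The 6 motifs searched, on both strands, were the TATA box (TATAAA), the GC box (GGGCGG), the AP-1 site (TGANTCA), the forkhead core (TGTTTAC), an androgen receptor half-site (AGAACA) and a p53-family half-site. Among 32851 promoters of the same length, 13.6%, 35.7%, 7.81%, 3.65%, 19.0% and 8.36% held them. In the Krt5 promoter at chr15:101712856-101713155 (minus strand), the capitals mark the p53-family half-site, which begins at position −95 counted from the start of the gene. The window listed for Krt14 at chr11:100205981-100206280 (minus strand) held none of the motifs searched. Whether it lies at the main start of Krt14 was not checked, so it is not set against that of Krt5. A match is a string of letters, and binding was not measured here.
Krt5: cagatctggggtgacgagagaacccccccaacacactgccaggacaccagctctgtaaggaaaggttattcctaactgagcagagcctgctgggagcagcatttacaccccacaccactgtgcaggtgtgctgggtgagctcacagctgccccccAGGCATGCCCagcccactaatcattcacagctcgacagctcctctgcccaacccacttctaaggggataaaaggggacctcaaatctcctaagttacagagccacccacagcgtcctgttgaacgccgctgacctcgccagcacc
Krt14: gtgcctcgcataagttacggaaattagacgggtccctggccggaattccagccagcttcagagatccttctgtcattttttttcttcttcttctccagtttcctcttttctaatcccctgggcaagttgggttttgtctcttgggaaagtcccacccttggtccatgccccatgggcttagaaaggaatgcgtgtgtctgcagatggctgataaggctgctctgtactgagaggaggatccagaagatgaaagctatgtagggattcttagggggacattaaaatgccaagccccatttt

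The Krt7 promoter at chr15:101412153-101412452 (plus strand) held 4 GC boxes, at −141, −128, −56 and −24, shown in capitals as they read on the strand of the gene. The Krt23 promoter at chr11:99493071-99493370 (minus strand) held none of the 6 motifs.
Krt7: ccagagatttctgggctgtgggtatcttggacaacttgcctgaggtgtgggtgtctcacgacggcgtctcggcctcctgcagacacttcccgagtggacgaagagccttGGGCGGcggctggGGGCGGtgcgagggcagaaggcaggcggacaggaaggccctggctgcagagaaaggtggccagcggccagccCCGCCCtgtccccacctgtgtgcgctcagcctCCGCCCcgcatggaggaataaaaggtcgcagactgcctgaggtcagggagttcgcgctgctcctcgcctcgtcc
Krt23: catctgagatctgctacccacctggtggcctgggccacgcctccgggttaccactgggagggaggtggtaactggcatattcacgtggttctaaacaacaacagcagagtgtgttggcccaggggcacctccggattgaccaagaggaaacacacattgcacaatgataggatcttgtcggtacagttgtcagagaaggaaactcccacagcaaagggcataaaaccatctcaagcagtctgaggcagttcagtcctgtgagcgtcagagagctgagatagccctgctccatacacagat

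Krt23, a type I keratin found in glandular and gastrointestinal epithelia, had the largest difference of the 14 members in PE against SVE. Its values were 9.381, 8.636, 8.999 and 9.091 in PE and 9.15, 8.76, 9.09 and 8.71 in mNKX3.1. They were 4.46, 6.66, 6.15 and 5.15 in UTY_sh, 4.51, 4.20, 5.90 and 6.80 in mNKX3.1+UTY_sh, and 6.99, 4.30, 4.83 and 4.52 in SVE. The PE libraries were all above the highest SVE library, and SVE library 1 stood above the rest of its group, while the UTY_sh and mNKX3.1+UTY_sh libraries were spread with no single one apart. Krt23 was 3.87 higher in PE than in SVE (SE 0.59, limma adjusted p = 1.60e-05) and 3.77 higher in mNKX3.1 than in SVE (SE 0.59, limma adjusted p = 2.13e-05). It held 2.48 ± 0.324% of the keratin signal per kb in PE and 0.294 ± 0.304% in SVE.

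Krt78, a type II keratin of stratified epithelia, lay near the floor in the groups other than PE and mNKX3.1. Its values were 6.13, 5.68, 5.49 and 5.71 in PE and 5.88, 5.25, 5.80 and 5.57 in mNKX3.1. They were 2.11, 2.82, 3.82 and 2.70 in UTY_sh, 2.75, 2.21, 3.75 and 4.18 in mNKX3.1+UTY_sh, and 4.05, 2.90, 2.95 and 3.14 in SVE. All PE and mNKX3.1 libraries were above all others. Krt78 passed the filter only through those libraries, so this separation is not independent of the filter. The difference was 2.49 in PE against SVE (SE 0.40, limma adjusted p = 3.02e-05) and 2.36 in mNKX3.1 against SVE (SE 0.40, limma adjusted p = 5.34e-05). With a pseudocount of 32 added to the antilogs, these were 1.04 and 0.96.

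The remaining 3 keratins that passed the filter, Krt4, Krt10 and Krt80, were not called in any comparison and are named here after their values were seen. Krt4, the type II keratin of non-cornified stratified epithelia, averaged 7.03 ± 0.33 in PE and 5.64 ± 1.40 in SVE (limma adjusted p = 0.117), and it passed when SVE library 3 was left out (limma adjusted p = 0.0498). Krt10, the type I keratin of differentiating epidermis, had values of 4.96 to 5.68 in PE and of 5.38 to 5.70 in SVE (limma adjusted p = 0.149), and it passed without PE library 3 (limma adjusted p = 0.0141). Krt80 is a type II keratin of differentiating epithelia. It averaged 4.22 ± 0.53 in PE and 5.30 ± 0.96 in SVE (limma adjusted p = 0.0519), and it passed when SVE library 2, SVE library 4 or PE library 2 was left out (limma adjusted p = 0.0235, 0.0294 and 0.0426).

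**Figure D3:**
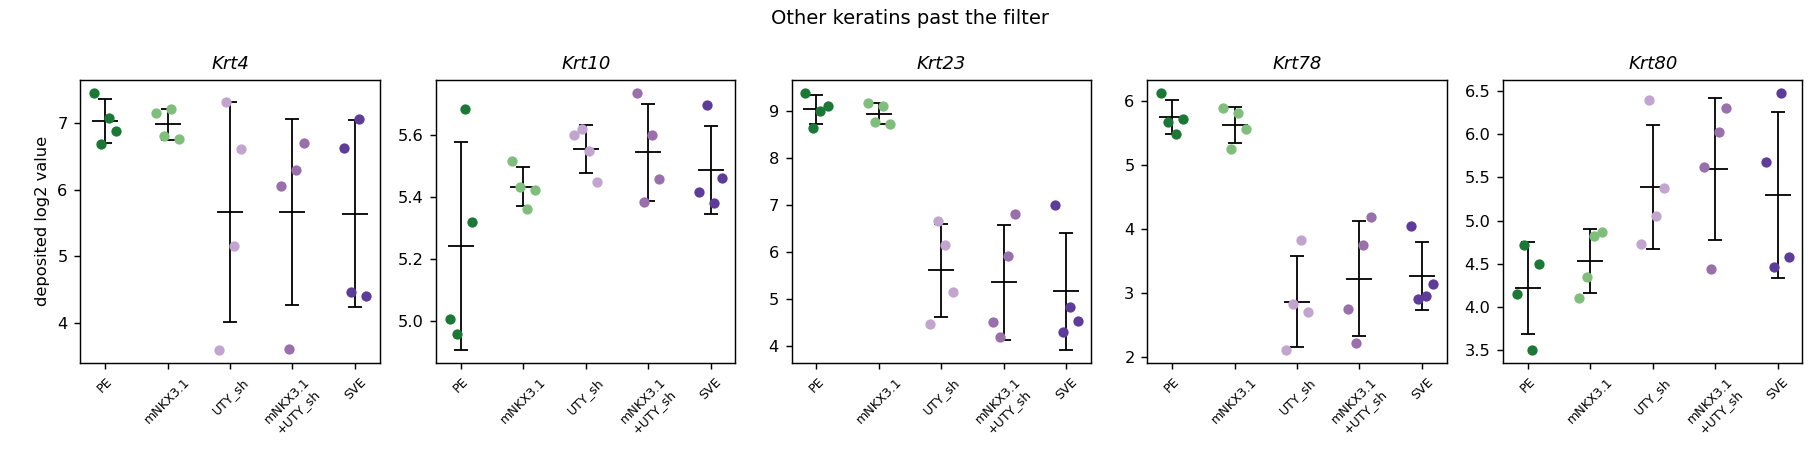
Deposited log2 values of the 5 other keratins that passed the filter, in the 4 libraries of each group, each gene with its own axis that does not start at 0. Points are libraries, and the bar and whiskers are the mean and SD. Krt23 and Krt78 lay above all other libraries in PE and mNKX3.1, while Krt4 ranged over 3.60 to 7.31 in UTY_sh, over 3.61 to 6.70 in mNKX3.1+UTY_sh and over 4.41 to 7.06 in SVE. Krt78 passed the filter only through PE and mNKX3.1 libraries.

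Among the 39 members below the filter, a fit with no filter called 4 in PE against SVE, where it called 37.5% of all 23284 genes. These too are named after their values were seen. Krt1, the type II keratin of epidermal spinous cells, averaged 4.53 ± 0.24 in PE and 3.18 ± 0.30 in SVE (limma adjusted p = 0.00228). Krt39 averaged 3.69 ± 0.30 in PE and 2.47 ± 0.73 in SVE (limma adjusted p = 0.00596), and Krt79 averaged 4.18 ± 0.29 in PE and 3.09 ± 0.55 in SVE (limma adjusted p = 0.0132). Krt31, a hair keratin, averaged 2.14 ± 0.27 in PE and 2.94 ± 0.25 in SVE (limma adjusted p = 0.0375). The same fit called 5 of the 39 in mNKX3.1 against SVE (37.6% of all genes), 4 in the comparison of mNKX3.1+UTY_sh with mNKX3.1 (38.5%) and 3 in the interaction (27.1%), and 0 in the other 3 comparisons. Krt1 (4.31 to 4.86 in PE) and the upper values of Krt79 (up to 4.61 in PE) lay above 4.02, the highest single value of the 36 lowest members, while Krt39 and Krt31 are among those 36 and every SVE value of the 4 genes lay below 4.02. The value of 4.02 is that of Krt39 itself, in an mNKX3.1 library, so no value of Krt39 could lie above it. The SD over libraries of those lowest members was 0.51 in the median.

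The third comparison set grafts with the construct and the hairpin against grafts with the construct alone. In mNKX3.1+UTY_sh, Trp63, Krt5, Krt14 and Krt7 were higher than in mNKX3.1, and Krt19, Krt15, Krt23 and Krt78 were lower, so 8 of 14 members changed, 4 in each direction. That is 57.1%, where 63.8% of all genes passed (31.4% higher, 32.4% lower). The groups were apart for 11 of the 14 members, against 61.9% of all genes. The largest rise among the members was that of Krt7, by 2.43 (SE 0.34, limma adjusted p = 6.56e-06), followed by Krt14 with 1.73 (SE 0.20, limma adjusted p = 5.05e-07), Trp63 with 1.15 (SE 0.09, limma adjusted p = 4.69e-09) and Krt5 with 0.83 (SE 0.13, limma adjusted p = 1.77e-05).

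Krt23 was lower in mNKX3.1+UTY_sh than in mNKX3.1, with a log2 difference of −3.58 (SE 0.59, limma adjusted p = 3.61e-05). Krt78 had a difference of −2.40 (SE 0.40, limma adjusted p = 4.31e-05), Krt15 one of −0.73 (SE 0.21, limma adjusted p = 0.00572) and Krt19 one of −0.41 (SE 0.13, limma adjusted p = 0.0106). Krt78 passed the filter only through PE and mNKX3.1 libraries. Its call, which is included in the count of members changed, is therefore not independent of the filter. The luminal pair did not pass: Krt18 differed by −0.19 (95% interval −0.36 to −0.01, limma adjusted p = 0.0608) and Krt8 by −0.08 (95% interval −0.21 to 0.06, limma adjusted p = 0.295). Krt18 passed without mNKX3.1+UTY_sh library 1 (limma adjusted p = 0.0450). Krt17 and Krt80 did not pass either, with differences of 0.57 and 1.06 (limma adjusted p = 0.0590 and 0.0544), and Krt80 passed without mNKX3.1+UTY_sh library 2 (limma adjusted p = 0.0116). With PE in place of mNKX3.1 and the mNKX3.1 libraries left out, a comparison added after seeing the data, 9 of 14 members passed, 5 higher and 4 lower in mNKX3.1+UTY_sh, where 61.3% of all genes did (30.0% higher, 31.3% lower). The differences were then 2.32 for Krt7, 1.58 for Krt14, 1.19 for Trp63, 0.72 for Krt5 and 1.38 for Krt80 (limma adjusted p = 3.66e-05, 2.56e-06, 6.84e-08, 1.26e-04 and 0.0249). They were −3.67 for Krt23, −2.53 for Krt78, −0.74 for Krt15 and −0.44 for Krt19 (limma adjusted p = 1.36e-04, 1.34e-04, 0.00912 and 0.00872). The limit from the filter holds here too for Krt78. It also holds for Krt80, which passed the filter only through libraries of UTY_sh, mNKX3.1+UTY_sh and SVE.

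**Figure D4:**
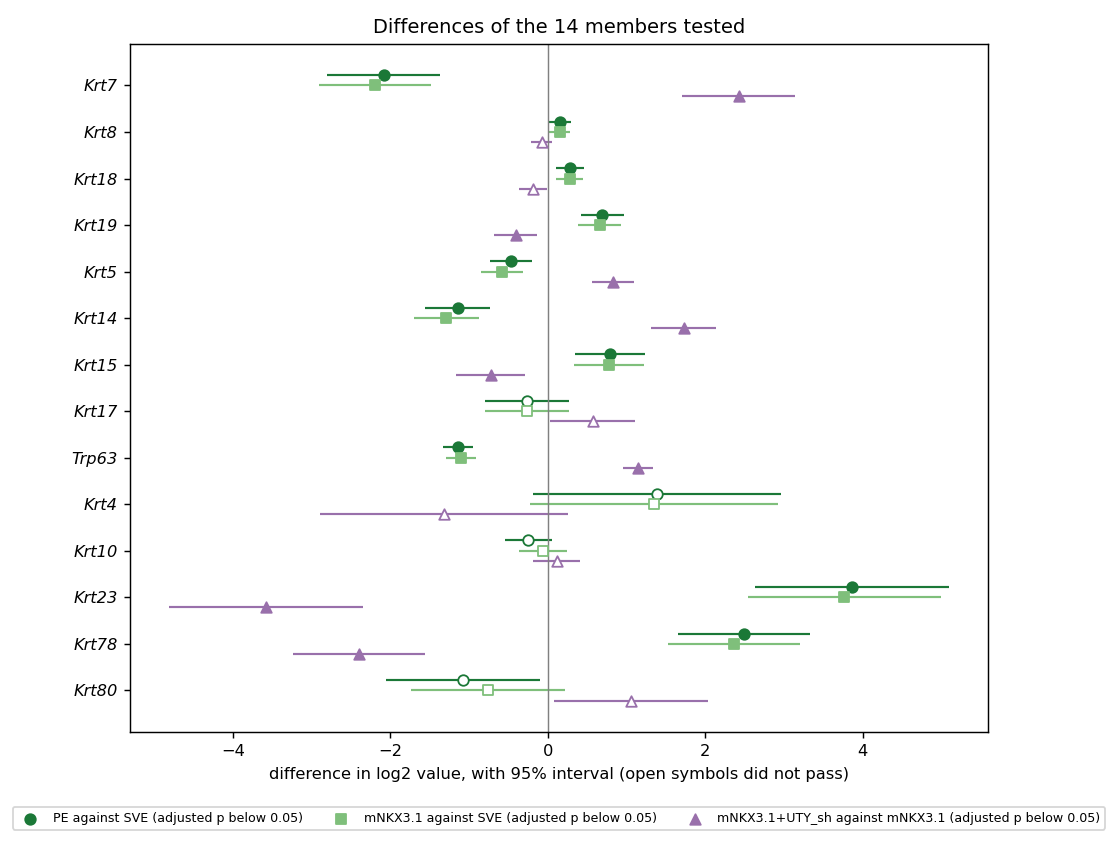
Differences in log2 value of the 14 tested members in 3 comparisons, with 95% intervals: PE and mNKX3.1, each against SVE, and the double group against mNKX3.1. Filled symbols passed an adjusted p of 0.05 and open ones did not. The first pair of comparisons shares the SVE libraries and the last pair shares the mNKX3.1 libraries, so their symbols are not independent. Krt23 lay at 3.87 and 3.77 in the first pair and at −3.58 in the last comparison.

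No member passed the test in the grafts with the hairpin alone. In UTY_sh against SVE, limma called 0 of 14 members and 0.0% of all genes, and at an unadjusted p under 0.05 it called 0 members and 316 genes, 2.35% of those tested. No member's groups were apart, against 1.23% of all genes. Trp63 differed by 0.12 (95% interval −0.07 to 0.31), Krt14 by 0.24 (−0.17 to 0.65), Krt5 by 0.22 (−0.04 to 0.49) and Krt7 by 0.19 (−0.53 to 0.90).

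In mNKX3.1+UTY_sh against SVE, limma again called 0 of 14 members and 0.0% of all genes, and at an unadjusted p under 0.05 it called 1 member and 557 genes, 4.14% of those tested. The 1 member was Krt14, with 8.94 to 9.16 in mNKX3.1+UTY_sh and 8.35 to 8.87 in SVE. These groups did not overlap, as was the case for 2.43% of all genes, and the difference was 0.44 (95% interval 0.03 to 0.85, limma adjusted p = 0.9998). Trp63 differed by 0.06 (95% interval −0.14 to 0.25), and Krt23 by 0.19 (95% interval −1.04 to 1.42).

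For mNKX3.1 against PE, limma called 0 of 14 members and 0.0% of all genes, and at an unadjusted p under 0.05 it called 0 members and 65 genes, 0.483% of those tested. No member's groups were apart, against 0.639% of all genes. Trp63 differed by 0.04 (95% interval −0.15 to 0.23), Krt14 by −0.14 (−0.56 to 0.27), Krt19 by −0.03 (−0.31 to 0.24) and Krt23 by −0.10 (−1.33 to 1.14). The SD of the 4 libraries was smaller in mNKX3.1 than in PE for 12 of the 14 members. Array weights, 1 of the other settings, called 850 genes in this comparison and 0 of the members.

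The interaction, which is the difference of mNKX3.1+UTY_sh minus mNKX3.1 less that of UTY_sh minus SVE, was called for 6 of 14 members, 4 higher and 2 lower, where 48.1% of all genes passed. It was 2.24 for Krt7 (limma adjusted p = 9.47e-04), 1.49 for Krt14 (limma adjusted p = 2.62e-04), 1.03 for Trp63 (limma adjusted p = 3.88e-06) and 0.61 for Krt5 (limma adjusted p = 0.00985). It was −4.02 for Krt23 (limma adjusted p = 6.37e-04) and −2.003 for Krt78 (limma adjusted p = 0.00701). Of the groups in the interaction, only mNKX3.1 had Krt78 at the level of the filter, so this call is not independent of the filter. Krt15 and Krt19 missed the threshold with −0.70 and −0.43 (limma adjusted p = 0.0611 and 0.0581). Both passed without SVE library 1 (limma adjusted p = 0.0487 and 0.0483), Krt15 also without SVE library 3, UTY_sh library 1 or mNKX3.1+UTY_sh library 4 (0.0163, 0.0266 and 0.0446), and Krt19 also without SVE library 4, mNKX3.1 library 2 or UTY_sh library 3 (0.0222, 0.0426 and 0.0321).

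Several keratins varied widely between libraries that carry the same label, in UTY_sh, mNKX3.1+UTY_sh and SVE. Krt4 had 3.60, 7.31, 5.15 and 6.60 in UTY_sh, 6.06, 3.61, 6.29 and 6.70 in mNKX3.1+UTY_sh, and 6.63, 4.46, 7.06 and 4.41 in SVE. Krt80 had 4.73, 6.40, 5.06 and 5.38 in UTY_sh, 5.61, 4.45, 6.03 and 6.30 in mNKX3.1+UTY_sh, and 5.68, 4.46, 6.48 and 4.58 in SVE. From low to high, the libraries of Krt4 and Krt80 stood in the same order in UTY_sh and in mNKX3.1+UTY_sh, and in SVE libraries 1 and 3 were the upper pair for both. Krt15 and Krt7 also had SVE libraries 1 and 3 as the upper pair, UTY_sh library 2 as the highest of its group, and mNKX3.1+UTY_sh library 4 as the highest and library 2 as the lowest of theirs.

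Krt23 followed another order in SVE, where library 1 was highest with 6.99 and library 3 had only 4.83. SVE library 1 was also the highest of its group for Pbsn, the probasin gene of the prostate, with 15.71 against 10.94, 6.59 and 6.43 in libraries 2, 3 and 4. Library 2, the next for Pbsn, had the lowest Krt23 of the group, 4.30. In mNKX3.1+UTY_sh, Pbsn had 5.29, 7.27, 12.56 and 15.06, and libraries 3 and 4 were the upper pair for Krt23 as well. Krt4, Krt80 and Krt7 stood in the same order as Krt23 in that group, so this match is not particular to Krt23. In UTY_sh, Pbsn had 9.69, 13.81, 14.81 and 10.02, and libraries 2 and 3 were the upper pair for Krt23. These orders were looked for after the values were seen and rest on 4 libraries in each group, and the part of prostate-type cells in the Krt23 values was not tested.

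**Figure D5:**
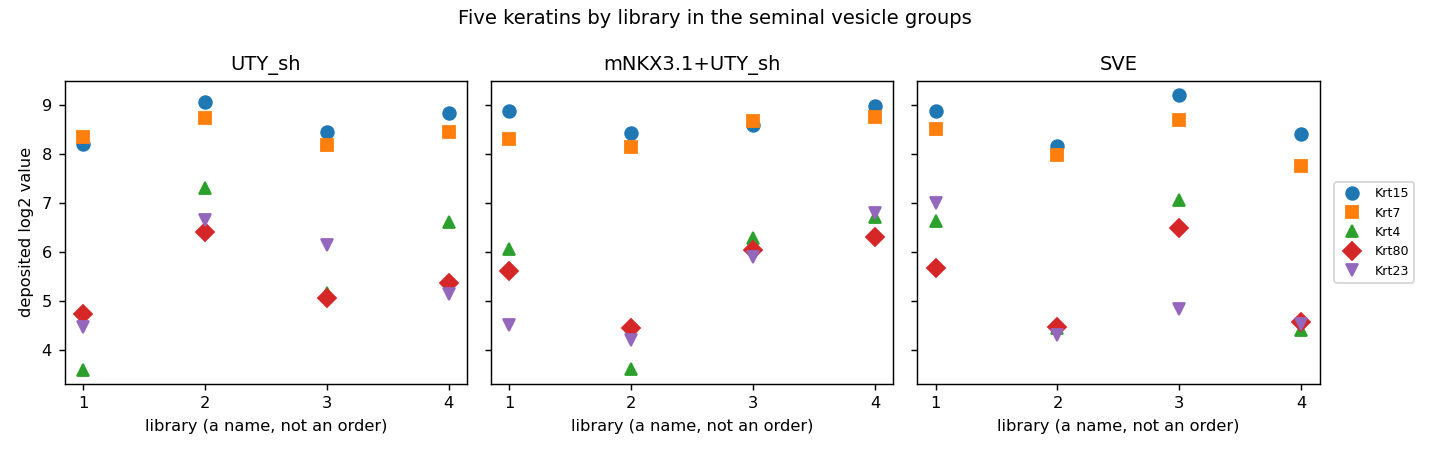
Deposited log2 values of Krt15, Krt7, Krt4, Krt80 and Krt23 in each library of the UTY_sh, mNKX3.1+UTY_sh and SVE groups. Library numbers are names and pair nothing between panels. Krt4 and Krt80 were high or low in the same libraries, as in SVE, where both were higher in libraries 1 and 3 (6.63 and 7.06 for Krt4) than in libraries 2 and 4 (4.46 and 4.41).

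Genes that work with keratins were read from lists, whose counts stand beside 62.1% of all genes called in PE against SVE (31.8% higher, 30.4% lower), 62.3% in mNKX3.1 against SVE (31.7% higher, 30.6% lower) and 63.8% in mNKX3.1+UTY_sh against mNKX3.1 (31.4% higher, 32.4% lower). Of 9 hemidesmosome and basal anchorage genes, which tie basal keratin filaments to the basement membrane, 3 were higher and 3 lower in PE than in SVE, with a median difference of −0.05 where all genes tested had 0.02. The integrin subunits that form a pair moved apart: Itga6 was 1.97 higher in PE (limma adjusted p = 4.13e-08), and Itgb4 had a difference of −1.01 (limma adjusted p = 2.75e-07). Dst, the linker between keratin and the hemidesmosome, was 0.62 higher (limma adjusted p = 6.89e-07). In mNKX3.1 against SVE the same list had 3 higher and 3 lower, and in mNKX3.1+UTY_sh against mNKX3.1 it had 5 higher and 3 lower.

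Desmosomes anchor keratin filaments at contacts between cells. Of 12 such genes 9 were tested, and 2 were higher and 2 lower in PE than in SVE, with a median difference of −0.06 against 0.02 for all genes. Pkp4 was 1.48 higher (limma adjusted p = 1.81e-08), Pkp2, a plakophilin of the desmosome plaque, had a difference of −0.63 (limma adjusted p = 3.33e-07), and Perp, a desmosomal protein that p63 activates, one of −0.85 (limma adjusted p = 7.19e-07).

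Among 17 partners and targets of p63, 15 were tested, and 2 were higher and 8 lower in PE than in SVE, where 31.8% of all genes were higher and 30.4% lower, with a median difference of −0.45 against 0.02 for all genes. Jag2, a Notch ligand, had a difference of −1.12 (limma adjusted p = 2.10e-07) and Jag1, another Notch ligand, one of −0.88 (limma adjusted p = 1.57e-06), next to Perp, which this list shares with the desmosomes. In mNKX3.1 against SVE the counts were 2 higher and 8 lower, and in mNKX3.1+UTY_sh against mNKX3.1 they were 8 higher and 2 lower, with medians of −0.35 and 0.34. The 2 genes higher in PE were Ngfr, a receptor that basal cells carry, and Tfap2c, an AP-2 transcription factor, named after their values were seen. Ngfr averaged 7.98 in PE and 5.46 in SVE (limma adjusted p = 1.30e-05), and Tfap2c averaged 7.86 in PE and 7.19 in SVE (limma adjusted p = 0.00298).

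Luminal factors and surface markers were mostly higher in the grafts with less Trp63. Of 15 such genes, 8 were higher and 3 lower in PE than in SVE, with a median difference of 0.71 against 0.02 for all genes. Ehf, an epithelial ETS factor, was 1.22 higher (limma adjusted p = 6.46e-08), Foxa1, a pioneer factor of prostate epithelium, 2.46 higher (limma adjusted p = 5.63e-08), and Cdh1, which encodes E-cadherin, 0.71 higher (limma adjusted p = 5.18e-08). In mNKX3.1 against SVE 9 were higher and 3 lower, and in mNKX3.1+UTY_sh against mNKX3.1 3 were higher and 8 lower.

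Of the same list, Cdh1 and Epcam mark epithelium in general, and Epcam is named after its value was seen. Cdh1 averaged 12.23 ± 0.12 in PE and 11.52 ± 0.07 in SVE, and Epcam, an adhesion protein of simple epithelia, averaged 12.76 ± 0.06 in PE and 11.03 ± 0.43 in SVE (limma adjusted p = 4.81e-08). The differences were 0.71 for Cdh1 and 1.73 for Epcam, beside 0.16 for Krt8, 0.28 for Krt18 and 0.69 for Krt19. Smooth muscle genes were lower in PE for 6 of 6 (summed level 15.45 to 15.91 in PE, 16.44 to 17.13 in SVE), with Lmod1 at −1.88, Smtn at −1.09 and Tagln at −1.16 (limma adjusted p = 2.28e-10, 6.56e-07 and 3.04e-06). Of 5 fibroblast genes 2 were lower, Col1a1 and Col3a1, with differences of −0.68 and −0.40 (limma adjusted p = 7.76e-04 and 0.0309), with a summed level of 13.29 to 13.54 in PE and 13.46 to 13.91 in SVE. The part of the ratio of epithelium to stroma in the keratin differences was not tested.

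Genes of other intermediate filaments and of other epithelia were read in the same way. Of 8 filament genes of other tissues, 3 were higher and 4 lower in PE than in SVE, among them Des of muscle and Synm with −1.35 and −0.94 (limma adjusted p = 1.43e-06 and 6.18e-06) and Nefl of neurons with 3.79 (limma adjusted p = 1.07e-05). Of 4 cornified envelope genes tested, Tgm1 was 1.38 higher, and Calml3 and Ppl had differences of −3.23 and −1.09 (limma adjusted p = 2.25e-05, 5.40e-06 and 1.26e-05). Of 6 keratin-binding and turnover genes tested 1 was higher and 3 lower, with Ppl, Tchp at −0.39 and Plec at −0.30 (limma adjusted p = 0.00189 and 0.00288).

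Markers of other epithelia that a graft could hold were read as well. The summed level of the urothelial list was 11.56 to 12.57 in PE and 10.10 to 10.69 in SVE. Of 4 urothelial genes tested, Upk1a and Upk1b were 5.68 and 0.69 higher in PE, and Upk2 had a difference of −2.45 (limma adjusted p = 2.82e-06, 4.14e-05 and 2.21e-09), while the urothelial keratin Krt20 stayed below the filter. Of 6 kidney genes 1 was tested, Cdh16, with a difference of −2.85 (limma adjusted p = 2.75e-08). Of 6 skin and hair follicle genes found, 2 were tested, the member Krt10 and Tchh, and Tchh had a difference of −0.35 (limma adjusted p = 0.0252). The summed level of the skin list was 6.84 to 7.16 in PE and 6.94 to 7.18 in SVE, which overlapped. All 4 prostate secretory genes were higher in PE, with a summed level of 19.54 to 20.08 in PE and 8.93 to 17.88 in SVE, and all 5 seminal vesicle secretory genes were lower, with 14.75 to 17.65 in PE and 23.08 to 23.84 in SVE.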

How the data were processed

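RNA selected by poly-A from 20 grafts was sequenced as TruSeq libraries (Illumina), per the labels' protocols. Tools listed in the submitters' processing notes were Cufflinks (2.0.2), DESeq, TopHat2 (2.0.4) and bcl2fastq (1.8.4), and the build listed was mm9. No source used here gives their order, the gene annotation or the treatment of rat reads. The authors deposited 1 table of log2 values, with a row for each of 23284 genes and a column for each library. Antilogs between log2 values of 11 and 13 were tested for even spacing, after a constant offset fitted for each library was taken off. In every library 100% were then whole multiples of the value of 1 read (within 0.1), which gave the depths. Between log2 values of 8 and 10 only 19.5 to 21.7% were, so whole reads could not be recovered there. No count test was therefore run, and low values scatter around a floor.

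From the deposited values, limma 3.58.1 (R 4.3.3) fitted a mean per group over the 20 libraries, with a variance trend and empirical Bayes moderation. No pseudocount was added, since the values were already logs. Genes with at least 4 libraries at 5 or more were tested (13456), and an adjusted p below 0.05 (Benjamini-Hochberg within each of 7 comparisons) was called. The same script was tested on simulated data. Per-kb shares used antilogs divided by GENCODE M21 exon length, which 50 of 53 members had. The library numbers are names in accession order and pair nothing. Since no label says that the libraries of a group are separate animals, p-values reflect the spread between these libraries, which may be technical.

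The members and lists were chosen with earlier results of these data known. The simple and basal keratins and Trp63 were named in full, other keratins where called, and up to 3 called genes with the smallest p from each other list. Promoters were from RefSeq GRCm38.p6, matched by symbol, since the build of the table differs. Alternatives were no filter, a filter at log2 7, rescaling to the median, no trend, robust fitting, compared groups alone, array weights, a pseudocount of 32 on the antilogs, leaving out each library, and leaving out the 3 libraries rich in Pbsn. Scaling to the reads outside the 50 most abundant genes, and PE in place of mNKX3.1 in the third comparison, were added after seeing the data. Some results are not reported here.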

Additional observations from a re-analysis of the deposited data

Results flagged for a closer look

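Of 70 sets of 4 libraries examined, 1 held a library far from the other 3, by a gap test that flags about 5% of sets by chance: Krt17 had 4.44 in mNKX3.1 library 3, against 5.38, 5.40 and 5.29 in libraries 1, 2 and 4 of that group.

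For 6 members the difference of mNKX3.1+UTY_sh minus mNKX3.1 was unlike that of UTY_sh minus SVE, by limma's interaction term with Benjamini-Hochberg adjustment over all genes tested. The interaction was 2.24 for Krt7, 1.49 for Krt14, 1.03 for Trp63 and 0.61 for Krt5. It was −4.02 for Krt23 and −2.003 for Krt78, which passed the filter only through PE and mNKX3.1 libraries. In each of the 6, the 4 mNKX3.1 libraries were apart from all 4 libraries of mNKX3.1+UTY_sh, whereas UTY_sh and SVE overlapped. Of all genes tested 48.1% passed the same test.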

How the results depend on the processing

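The number of members called stayed within 1.5 times its value in every setting. Leaving out 1 library at a time gave 9 to 11 in PE against SVE, 9 to 10 in mNKX3.1 against SVE, 8 to 9 in mNKX3.1+UTY_sh against mNKX3.1 and 6 to 8 in the interaction, where all libraries gave 10, 10, 8 and 6. The other settings gave 8 to 13, 9 to 14, 7 to 12 and 5 to 9, and did not all test the same members. The upper ends came from the fit with no filter, which tested all 53 members. It called 37.5%, 37.6%, 38.5% and 27.1% of all genes in these comparisons. The lower ends of 7 and 5 came from the filter at log2 7, which tested fewer members. The count was 0 throughout in UTY_sh against SVE, mNKX3.1+UTY_sh against SVE and mNKX3.1 against PE. Of 34 called differences of single members, 31 held in every setting in which they were tested (Krt78 was not tested with the filter at log2 7), 3 were lost in some (Krt8 against SVE in both comparisons, and Krt18 in PE against SVE) and 0 changed sign; of 64 that were not called, 8 passed in some setting. The cause was not tested. No paired analysis was possible because the labels give the libraries no replicate number, and the numbers used here follow accession order. Depth limits the low members most. Whole reads could be recovered between log2 values of 11 and 13, where Krt8 and Krt19 lay in every library. Krt18 lay mostly above that range, which was not tested. Between log2 values of 8 and 10 whole reads could not be recovered.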
